A study of Mus musculus with 8 samples.

Results

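The levels of 10 genes of endoplasmic reticulum (ER) folding and stress were followed across germinal centre B cell fractions of Smarca4+/- and Smarca4+/+ mice. Smarca4 is the gene of an ATPase subunit of SWI/SNF chromatin remodelling complexes. The genes are the chaperones Hspa5, Hsp90b1 and Calr, the disulfide isomerases Pdia4 and Pdia6, the Hspa5 partners Sdf2l1 and Dnajb9, the membrane protein Herpud1, and the transcription factors Atf4 and Ddit3. They were taken by symbol from the 55421 gene identifiers counted, and all 10 passed the low count filter, which left 12997 genes. Ddit3 had a second identifier, which held 0 counts in every library, so 11 identifiers were matched in all. The 10 genes were chosen by their symbols, but with measured values in view: the log2 fold changes of CC against CB in Smarca4+/+ mice, in which several of them had stood out. Their differences in that comparison are therefore given as a description, with no test.

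The libraries came from spleens of C57BL/6 mice aged 8 to 10 weeks, taken 10 days after immunization, and germinal centre B cells were enriched with PNA microbeads. There were 2 bulk libraries in each of 4 groups, Smarca4+/- CC, Smarca4+/+ CC, Smarca4+/- CB and Smarca4+/+ CB. The labels do not spell out the fractions; CC is taken to mean centrocytes, the light zone B cells, and CB centroblasts, those of the dark zone. How the fractions were parted, the Smarca4 allele and its driver, the immunogen, and whether the 2 libraries of a group came from separate mice or pools are not stated in the labels. A p therefore rests on how far libraries of the same group lie apart, which can be technical. In the main tests the spread was taken over all 4 groups and drew on other genes, not only on the groups and gene tested.

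Proteins that enter the ER are folded by Hspa5 (BiP), Hsp90b1 (GRP94), calreticulin and disulfide isomerases. When unfolded proteins build up, the sensors IRE1, ATF6 and PERK start the unfolded protein response: the IRE1 target XBP1 and cleaved ATF6 raise chaperone and degradation genes, and PERK slows translation while favouring ATF4, which in turn raises Ddit3 (CHOP). B cells that become plasma cells expand their ER and its chaperones through XBP1, whereas germinal centre B cells secrete little antibody.

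Total counts ran between 526353 and 837558 in CC and between 18357578 and 24341805 in CB libraries. A group count of 0 allows up to 1.88 CPM (counts relative to the TMM-scaled library total) in Smarca4+/- CC and 2.55 CPM in Smarca4+/+ CC, against 0.0753 and 0.0729 CPM in Smarca4+/- CB and Smarca4+/+ CB. These floors, 3 counts over both libraries of a group, cover counting error only. Most low counts were even, and whether the mates of a read pair were counted one by one is not stated. If they were, a count stands for fewer molecules than its number, and a floor of 6 counts would be 3.76 CPM in Smarca4+/- CC and 5.1 CPM in Smarca4+/+ CC. Smarca4 itself was at 244 and 311 CPM in Smarca4+/- CC, against 322 and 316 CPM in Smarca4+/+ CC, and at 734 and 702 CPM in Smarca4+/- CB, against 897 and 1002 CPM in Smarca4+/+ CB. Both Smarca4+/- groups lay below their Smarca4+/+ counterparts, although neither genotype difference passed edgeR's quasi-likelihood test with Benjamini-Hochberg adjustment (adjusted p = 0.607 in CC and 1.0 in CB). Of 8 dark and light zone markers, 4 were called higher and 3 lower in Smarca4+/- CC than in Smarca4+/- CB, and 3 higher and 4 lower in Smarca4+/+ CC than in Smarca4+/+ CB. Myc was at 90.8 and 120.9 CPM in Smarca4+/- CC, against 27.6 and 24.7 CPM in Smarca4+/- CB, and Cxcr4 was at 48.1 and 78.2 CPM in Smarca4+/- CC, against 256.7 and 238.0 CPM in Smarca4+/- CB.

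The promoters of 5 of the 10 genes hold a written copy of an ER stress element. RefSeq promoter windows (mouse build GRCm38.p6, 250 bases before to 50 after each start, both strands searched) matched all 10 genes. The ER stress element, read as CCAAT, any 9 bases, then CCACG, was found in the windows of Pdia6, Hspa5, Hsp90b1 and Calr, 4 of the 10 genes, and in 39 of all 32851 windows (0.119%). The shorter element ERSE-II, read as ATTGG, any base, then CCACG, was found in Herpud1 and in 12 of all windows (0.0365%). The sites are shown because these are the sequences through which ATF6 and XBP1 are known to raise chaperone genes; capitals mark the motif letters, and each is printed along the strand on which the motif reads from left to right.
Pdia6, chr12:17266486-17266514, plus strand: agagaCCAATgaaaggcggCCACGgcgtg
Hspa5, chr2:34772020-34772048, plus strand: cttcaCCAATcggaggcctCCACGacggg
Hsp90b1, far site, chr10:86705633-86705661, minus strand: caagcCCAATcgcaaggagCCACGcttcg
Hsp90b1, near site, chr10:86705528-86705556, plus strand: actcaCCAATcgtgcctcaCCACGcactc
Calr, chr8:84847070-84847098, plus strand: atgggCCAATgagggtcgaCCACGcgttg
Herpud1, chr8:94386372-94386392, plus strand: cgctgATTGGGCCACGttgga

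Hsp90b1 carried its 2 copies in opposite directions, 212 to 194 and 107 to 89 bases before its start. The 134 bases that span both, chr10:86705528-86705661, are printed below along the gene's own (minus) strand, with the letters of both motifs in capitals. The copies in Pdia6, Hspa5, Calr and Herpud1 began 98, 65, 162 and 52 bases before the start, that of Calr on the strand opposite to the gene. The Hspa5 site lies inside the span of the gene in the deposited table, which starts further upstream, at position 34771970 of chromosome 2.
Hsp90b1, both sites: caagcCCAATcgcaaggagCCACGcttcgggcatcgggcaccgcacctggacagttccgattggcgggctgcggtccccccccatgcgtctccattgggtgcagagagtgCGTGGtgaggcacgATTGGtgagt

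Herpud1 alone among the 10 also held the C/EBP-ATF site TTGCATCA, present in 294 of all windows (0.895%), at chr8:94386312-94386329 on the plus strand. The XBP1 core TGACGTGG (222 windows, 0.676%), whose reverse complement shares the letters CCACG with the ER stress elements, and the CRE core TGACGTCA (588 windows, 1.79%) were in none of the 10 windows. A match is a description of these letters and says nothing of binding.
Herpud1, C/EBP-ATF site: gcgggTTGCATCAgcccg

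Pdia4, an ER disulfide isomerase (chr6:47796141-47813430, minus strand), was at 123 and 65.2 CPM in Smarca4+/- CC, 202 and 219 CPM in Smarca4+/+ CC, 40.6 and 30.7 CPM in Smarca4+/- CB, and 38.6 and 31.8 CPM in Smarca4+/+ CB. Both CC groups lay above both CB groups, and the 2 Smarca4+/- CC libraries (94.0 ± 40.8 CPM, mean and SD, n = 2) lay below both Smarca4+/+ CC libraries (210.5 ± 12.1 CPM, n = 2). These values rest on 92 and 55 counts in Smarca4+/- CC, 113 and 134 in Smarca4+/+ CC, and 640 to 771 in the CB libraries. In bulk RNA, fewer cells of a type and less RNA per cell cannot be told apart.

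Hsp90b1, the ER form of HSP90 (chr10:86690209-86705509, minus strand), was at 342 and 251 CPM in Smarca4+/- CC, 436 and 325 CPM in Smarca4+/+ CC, 189 and 131 CPM in Smarca4+/- CB, and 165 and 127 CPM in Smarca4+/+ CB. Both CC groups were above both CB groups, and the genotypes overlapped within each fraction. Calr, the calcium-binding lectin chaperone of glycoproteins (chr8:84841850-84846934, minus strand), was at 451 and 332 CPM in Smarca4+/- CC, 647 and 497 CPM in Smarca4+/+ CC, 304 and 256 CPM in Smarca4+/- CB, and 289 and 232 CPM in Smarca4+/+ CB. The Smarca4+/- CC libraries lay between the Smarca4+/+ CC and the CB libraries.

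Hspa5, the central ER chaperone, which also holds the stress sensors inactive (chr2:34771970-34777547, plus strand), was at 429 and 275 CPM in Smarca4+/- CC, 341 and 349.8 CPM in Smarca4+/+ CC, 252 and 199 CPM in Smarca4+/- CB, and 251 and 181 CPM in Smarca4+/+ CB. Its CC groups overlapped, and both were above the CB groups. Sdf2l1, which works with Hspa5 and its J-domain partners (chr16:17130138-17132383, minus strand), was at 32.0 and 54.5 CPM in Smarca4+/- CC, 71.5 and 58.8 CPM in Smarca4+/+ CC, 31.2 and 22.9 CPM in Smarca4+/- CB, and 24.8 and 24.0 CPM in Smarca4+/+ CB. The lower Smarca4+/- CC library was close to the higher Smarca4+/- CB library.

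Pdia6, another disulfide isomerase (chr12:17266545-17284770, plus strand), was at 142 and 133 CPM in Smarca4+/- CC, 150.1 and 147 CPM in Smarca4+/+ CC, 123 and 90.2 CPM in Smarca4+/- CB, and 123 and 91.8 CPM in Smarca4+/+ CB. Its differences were small, but both CC groups lay above both CB groups. Dnajb9, an ER J-domain protein known as an IRE1 and XBP1 target (chr12:44205559-44210326, minus strand), was low, at 17.4 and 7.11 CPM in Smarca4+/- CC, 21.4 and 11.4 CPM in Smarca4+/+ CC, 10.9 and 9.03 CPM in Smarca4+/- CB, and 11.2 and 8.21 CPM in Smarca4+/+ CB. Its CC values rest on 6 to 13 counts a library.

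Herpud1, a membrane protein of ER-associated degradation (chr8:94386438-94395377, plus strand), was at 122 and 123 CPM in Smarca4+/- CC, 107 and 86.6 CPM in Smarca4+/+ CC, 109 and 108 CPM in Smarca4+/- CB, and 121 and 118 CPM in Smarca4+/+ CB. Atf4, the effector of the PERK arm (chr15:80255184-80257541, plus strand), was at 147 and 111 CPM in Smarca4+/- CC, 111 and 134 CPM in Smarca4+/+ CC, 174 and 156 CPM in Smarca4+/- CB, and 153 and 151 CPM in Smarca4+/+ CB. Unlike the chaperones, both CC groups of Atf4 lay below both CB groups.

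Ddit3, the factor CHOP that promotes cell death under lasting ER stress (chr10:127290774-127296288, plus strand), was the lowest, with 4 and 8 counts in Smarca4+/- CC, 0 and 4 in Smarca4+/+ CC, 76 and 84 in Smarca4+/- CB, and 88 and 81 in Smarca4+/+ CB. That was 5.34 and 9.48 CPM in Smarca4+/- CC, 0 and 6.54 CPM in Smarca4+/+ CC, 4.01 and 4.03 CPM in Smarca4+/- CB, and 4.47 and 3.78 CPM in Smarca4+/+ CB. No order between the groups can be read from so few CC counts. Ddit3 also overlaps the antisense gene Mars by 68 bases, and Hsp90b1 overlaps the antisense 1810014B01Rik by 4598 bases; the strand setting is not stated, so reads in the overlaps cannot be told apart, and 1810014B01Rik itself held at most 12 counts in a CC and 80 in a CB library. Mars held 21 to 60 counts in CC and 1532 to 1677 in CB libraries, many times those of Ddit3.

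**Figure D1:**
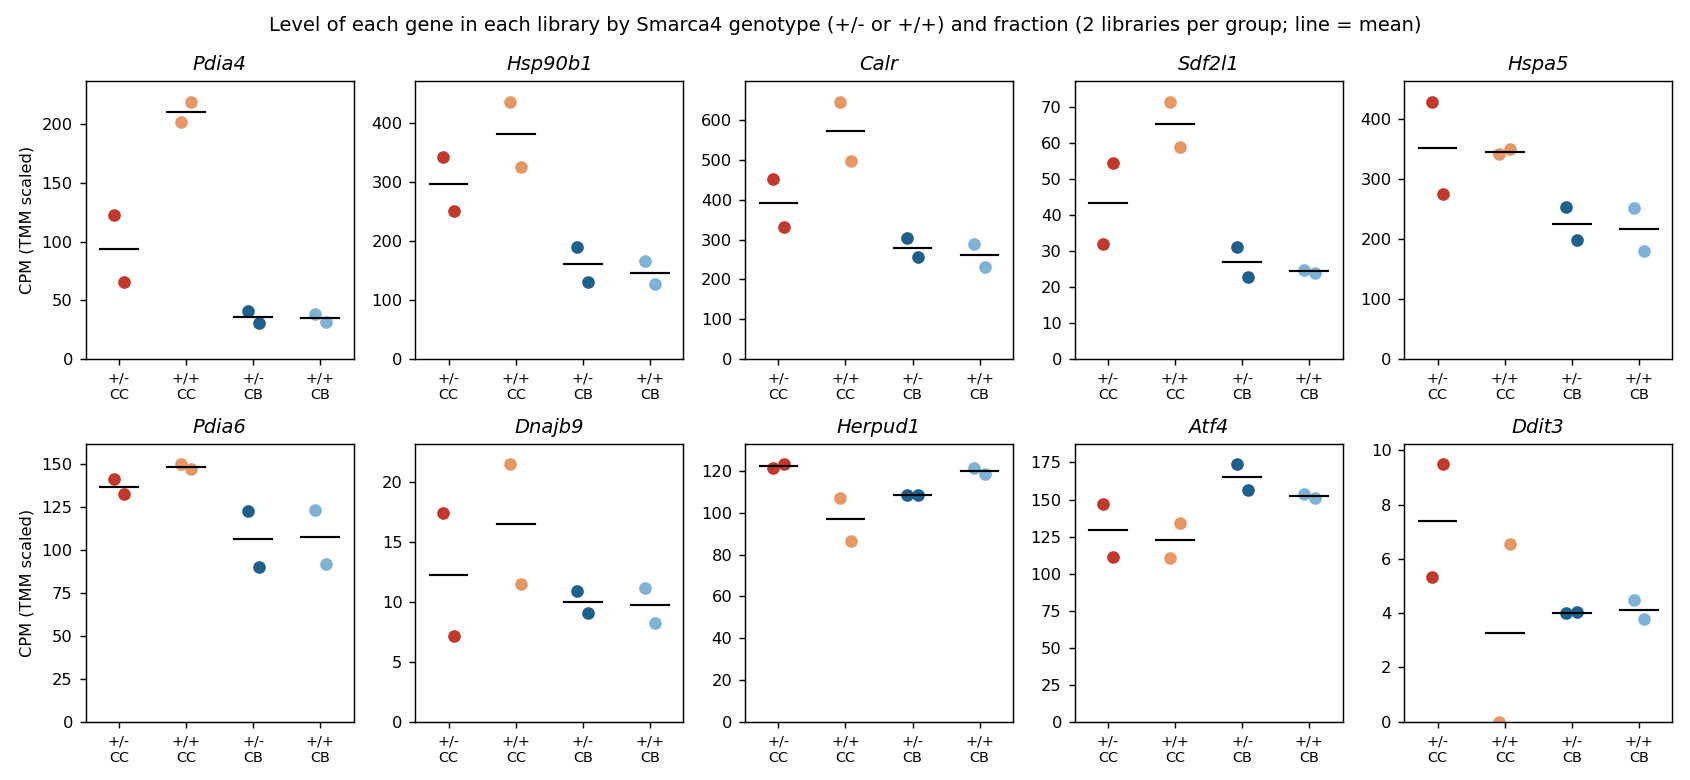
Level of each of the 10 genes in each of the 8 libraries, in CPM (TMM scaled), by Smarca4 genotype and fraction; points are libraries and lines are group means (n = 2). Pdia4 lies at 202 and 219 CPM in Smarca4+/+ CC, above every other library, while Atf4 is lower in both CC groups than in both CB groups.

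Per kilobase of exon, Calr had the highest level of the 10 in all 4 groups, at 136.0 CPM per kb in Smarca4+/- CC, 198.6 in Smarca4+/+ CC, 97.1 in Smarca4+/- CB and 90.5 in Smarca4+/+ CB. Ddit3 had the lowest level per kb in each group, with Dnajb9 next to it. Atf4 held rank 4 in Smarca4+/- CC and rank 6 in Smarca4+/+ CC, and rank 2 in both CB groups, at 70.0 CPM per kb in Smarca4+/- CB and 64.5 in Smarca4+/+ CB. Pdia4 held rank 8 in both CB groups, at 14.9 ± 2.92 CPM per kb in Smarca4+/- CB and 14.7 ± 2.01 in Smarca4+/+ CB. It held rank 6 in Smarca4+/- CC (39.2 ± 17.0 CPM per kb) and rank 3 in Smarca4+/+ CC (87.7 ± 5.05 CPM per kb, SD, n = 2). In Smarca4+/- CC, Pdia4, Sdf2l1 (39.1 CPM per kb) and Pdia6 (36.6 CPM per kb) did not differ beyond the spread of Pdia4 between libraries. In Smarca4+/+ CC, Hsp90b1 (94.4 ± 19.4 CPM per kb), Pdia4 and Hspa5 (81.7 CPM per kb) did not differ beyond the spread of Hsp90b1.

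The comparison of CC with CB cells in Smarca4+/- mice set group means of other libraries than those in which the genes had stood out. Its scaling and spread came from all 8 libraries, those included, so its p is not independent of that choice. Pdia4 rose in Smarca4+/- CC by a log2 fold change of 1.39 (SE 0.32, edgeR's quasi-likelihood test with Benjamini-Hochberg adjustment over all genes, adjusted p = 0.037). It was the 1 member called of 10; across all genes 3.67% were called, 2.17% higher and 1.5% lower. Of the 10, 8 lay wholly above the Smarca4+/- CB libraries, and 1, Atf4, wholly below, against 20.2% of all genes above and 33.2% below. The values for Hsp90b1 were 0.89 (SE 0.26, adjusted p = 0.0922), for Sdf2l1 0.69 (SE 0.38, adjusted p = 0.367), for Hspa5 0.64 (SE 0.25, adjusted p = 0.206), and for Calr 0.48 (SE 0.22, adjusted p = 0.277), none past the threshold in edgeR's test. Pdia6, Dnajb9, Herpud1 and Ddit3 had log2 fold changes of 0.36, 0.29, 0.17 and 0.89, the last with an SE of 0.95, and Atf4 had -0.36 (SE 0.23). The median of the 10 was 0.56, against -0.08 over all genes.

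Without the first Smarca4+/- CC library the log2 fold change of Pdia4 was 0.85 (edgeR, adjusted p = 0.3; 64 of all genes were then called). The call also ended without either Smarca4+/- CB library (1.67, adjusted p = 0.18, and 1.25, adjusted p = 0.308), where edgeR called 0 of all genes, so that no gene kept a call. It ended as well without either Smarca4+/+ CB library (1.44 each, adjusted p = 0.067 and 0.0668), and when the 2 groups were fitted alone (1.40, adjusted p = 0.0946). Hsp90b1 was called as well by DESeq2 (1.01, adjusted p = 0.0107) and by edgeR with no low count filter (0.85, adjusted p = 0.0101) or with the CB counts thinned to the depth of CC (1.01, adjusted p = 0.0419).

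In Smarca4+/+ mice the values of CC against CB are those that drew attention to the genes. The log2 fold changes were 2.58 (SE 0.32) for Pdia4, 1.42 (SE 0.38) for Sdf2l1, 1.38 (SE 0.26) for Hsp90b1 and 1.13 (SE 0.22) for Calr. Dnajb9, Hspa5 and Pdia6 followed with 0.75 (SE 0.67), 0.68 (SE 0.25) and 0.47 (SE 0.26). Ddit3, Herpud1 and Atf4 had -0.29 (SE 1.13), -0.31 (SE 0.23) and -0.31 (SE 0.23). Of the 10, 7 lay wholly above the Smarca4+/+ CB libraries and 2 wholly below, against 18.2% and 38.5% of all genes, and their median was 0.72. Over all genes, 7.49% were called in this comparison. The median over all genes was -0.19 in this comparison with TMM scaling and -0.07 with RLE scaling, and the fold changes stand beside that shift.

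**Figure D2:**
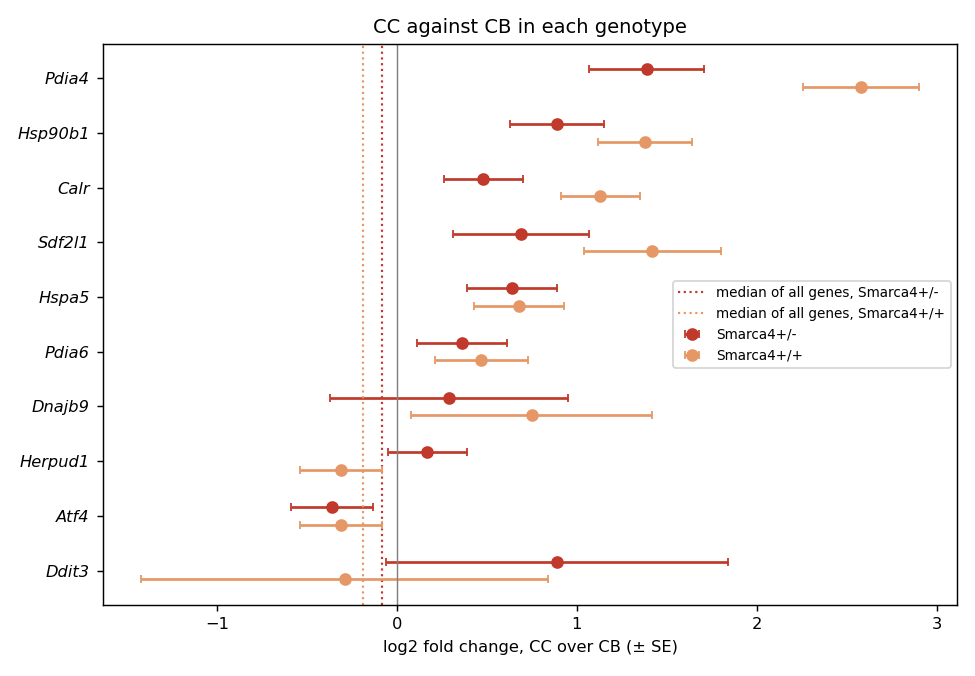
Log2 fold change of CC over CB for each of the 10 genes in Smarca4+/- and in Smarca4+/+ mice; points are fitted values, bars 1 SE (2 libraries a group), and dotted lines the median of all genes. Pdia4 is at 1.39 in Smarca4+/- and 2.58 in Smarca4+/+ mice, and Atf4 is below 0 in both.

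Whether the CC against CB difference depended on the genotype was asked by the interaction. No member was called (0 of 10, against 0.0% of all genes in edgeR's quasi-likelihood test; 1 member and 1195 of all genes had an unadjusted p under 0.05, and DESeq2 called 0 members). Pdia4 had an interaction of -1.19 on the log2 scale (SE 0.44, 95% interval -2.05 to -0.32, adjusted p = 0.466), Calr -0.65 (SE 0.31, adjusted p = 0.56), Sdf2l1 -0.73 (SE 0.53, adjusted p = 0.647) and Hsp90b1 -0.49 (SE 0.37, adjusted p = 0.654). Hspa5 was at -0.04 (SE 0.35). The 95% intervals given here and below take the SE as normal, so they are narrower than edgeR's test allows. The value was negative for 8 members and positive for 2, Herpud1 and Ddit3, with a median of -0.29 against 0.10 over all genes. The interaction contains the whole Smarca4+/+ CC against CB difference that drew attention to the genes, so these signs are not independent of that choice.

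Between genotypes within CC, Pdia4, Calr, Sdf2l1 and Pdia6 had lower levels in both Smarca4+/- CC libraries than in both Smarca4+/+ CC libraries, and Hspa5 did not, but none of the 10 passed the test. No member was called (0 of 10, against 0.0231% of all genes, which were 3, all lower); 2 members and 1980 of all genes had an unadjusted p under 0.05. Pdia4 had a log2 fold change of -1.17 (SE 0.33, 95% interval -1.81 to -0.53, edgeR's adjusted p = 0.164), Sdf2l1 -0.58 (SE 0.40, adjusted p = 0.49), Calr -0.55 (SE 0.23, adjusted p = 0.29) and Hsp90b1 -0.36 (SE 0.27, adjusted p = 0.52). Pdia4, Calr, Sdf2l1 and Pdia6 lay wholly below and Herpud1 wholly above the Smarca4+/+ CC libraries, against 14.4% and 18.1% of all genes. Hspa5 was at 0.02 (SE 0.26, 95% interval -0.48 to 0.53). DESeq2 called 1 member, Pdia4 (-1.18, adjusted p = 0.0237), as did edgeR with no low count filter (-1.15, adjusted p = 0.0491). DESeq2 called 846 genes in all here, and the Smarca4+/+ CC libraries are again those in which the genes had stood out. Levels of cell cycle and dark zone markers in the same libraries stand beside this, none of them called by edgeR between genotypes. DESeq2 called 2 of the 8 dark and light zone markers higher in Smarca4+/- CC than in Smarca4+/+ CC. Mki67, a proliferation marker, was at 1777.3 and 2573.9 CPM in Smarca4+/- CC, against 1129.3 and 1026.6 CPM in Smarca4+/+ CC (log2 fold change 1.01, SE 0.19, edgeR's adjusted p = 0.1), and at 3680.9 to 4527 CPM in the CB libraries. The mitotic kinase gene Aurka was at 24.0 and 32.0 CPM in Smarca4+/- CC, against 3.57 and 3.27 CPM in Smarca4+/+ CC (3.04, SE 0.59, adjusted p = 0.103), and at 50.8 to 61.8 CPM in the CB libraries. Cxcr4 was at 48.1 and 78.2 CPM in Smarca4+/- CC, against 32.2 and 45.8 CPM in Smarca4+/+ CC. All 3 thus lay nearer to their CB levels in Smarca4+/- CC, as Pdia4 did, Cxcr4 only narrowly. Myc did too, at 90.8 and 120.9 CPM in Smarca4+/- CC, against 128.7 and 153.7 CPM in Smarca4+/+ CC. Of the same list, Foxo1, Cd86, Ccnd2 and Cd83 overlapped between the genotypes in CC. Cd83 was at 235.0 and 356.9 CPM in Smarca4+/- CC, against 178.7 and 256.7 CPM in Smarca4+/+ CC. It was at 117.7 to 154.1 CPM in the CB libraries. The part of these markers in the Pdia4 values was not tested.

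Between genotypes within CB, no difference was detected among the 10 genes, although the Smarca4+/+ CB libraries had also been used in their choice. Their log2 fold changes ran between -0.14 for Herpud1 and 0.15 for Sdf2l1, with Pdia4 at 0.02 (SE 0.30, 95% interval -0.56 to 0.60) and Hspa5 at 0.06 (SE 0.24). No member was called by edgeR or DESeq2 (0 of 10, against 0.0% of all genes in edgeR; 0 members and 84 of all genes had an unadjusted p under 0.05). The signs of Pdia6 and Ddit3, both within 0.05 of 0, turned with total count scaling. Only Atf4 lay wholly above and only Herpud1 wholly below the Smarca4+/+ CB libraries, against 16.2% and 15.8% of all genes.

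**Figure D3:**
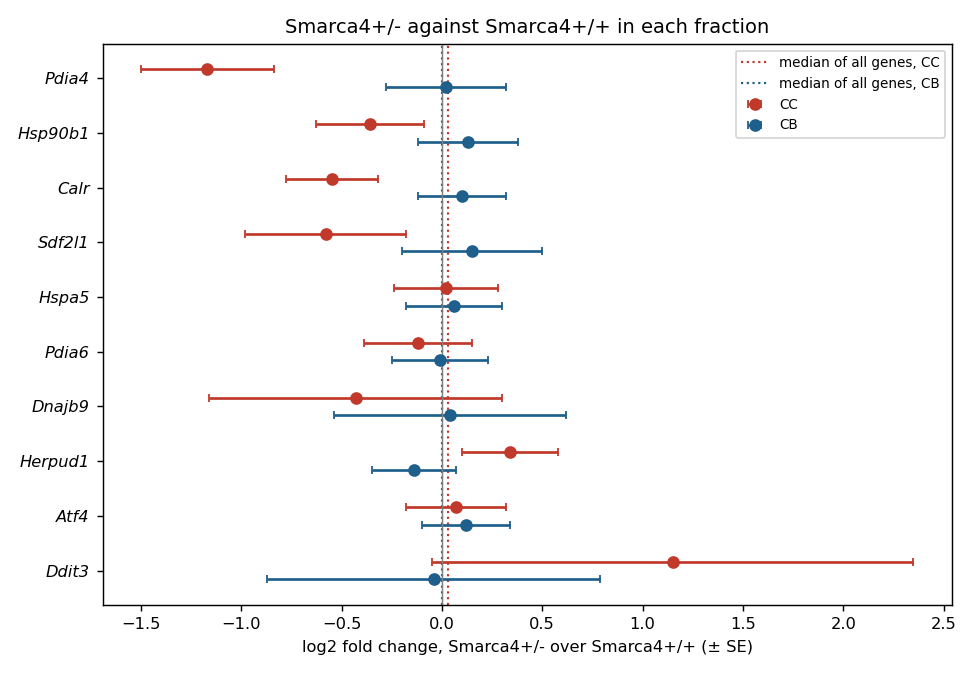
Log2 fold change of Smarca4+/- over Smarca4+/+ for each of the 10 genes in CC and in CB; points are fitted values, bars 1 SE (2 libraries a group), and dotted lines the median of all genes. In CB the points run between -0.14 and 0.15, and in CC Pdia4 is at -1.17 and Hspa5 at 0.02.

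Of 106 other genes of the pathway tested between CC and CB, in 6 lists, edgeR called 0 higher and 3 lower in Smarca4+/- and 2 higher and 2 lower in Smarca4+/+ mice. Over all 12997 genes it called 2.17% higher and 1.5% lower in Smarca4+/- and 3.72% and 3.76% in Smarca4+/+ mice, the background for each list. An unadjusted p under 0.05 was reached by 13 of the 106 and 2359 of all genes in Smarca4+/- and by 20 and 3026 in Smarca4+/+ mice. DESeq2, which called more genes in all, called 7 higher and 4 lower in Smarca4+/- and 13 higher and 5 lower in Smarca4+/+ mice. By edgeR, of 11 sensors and transducers of the unfolded protein response, 0 rose and 1 fell in Smarca4+/- CC, and 1 rose and 1 fell in Smarca4+/+ CC, relative to CB of the same genotype. The gene that fell in both was Eif2ak3, which encodes PERK, at 45.4 and 107.9 CPM in Smarca4+/- CC, against 269.5 and 280.6 CPM in Smarca4+/- CB, and at 51.8 and 62.1 CPM in Smarca4+/+ CC, against 301.9 and 266.0 CPM in Smarca4+/+ CB. No CC library overlapped a CB library. Its log2 fold change was -1.83 (SE 0.32, edgeR's adjusted p = 0.0112) in Smarca4+/- mice and -2.31 (SE 0.34, adjusted p = 0.00322) in Smarca4+/+ mice. The call in Smarca4+/- mice ended without the first Smarca4+/- CC library (-1.37, adjusted p = 0.0554), without either Smarca4+/- CB library (-1.80, adjusted p = 0.12, and -1.77, adjusted p = 0.129, with 0 of all genes called) and with these groups fitted alone (-1.82, adjusted p = 0.0528). That in Smarca4+/+ mice held under all 17 alternatives run, and whether the fall differed between genotypes is the interaction, in which edgeR called no gene.

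Creb3l2, an ER-bound transcription factor related to ATF6, rose in Smarca4+/+ CC by 3.34 on the log2 scale (SE 0.69, edgeR's adjusted p = 0.016), at 28.6 and 29.4 CPM in Smarca4+/+ CC, against 2.44 and 3.27 CPM in Smarca4+/+ CB. It was at 13.4 and 14.2 CPM in Smarca4+/- CC, against 3.27 and 1.87 CPM in Smarca4+/- CB, a difference that was not called. The Smarca4+/+ call ended without any 1 of the 4 CB libraries (adjusted p = 0.064 to 0.236). Named here after their values were seen, Xbp1 had log2 fold changes of 0.08 (SE 0.25) in Smarca4+/- and -0.43 (SE 0.26) in Smarca4+/+ mice, and Atf6 of 0.22 (SE 0.25) and 0.33 (SE 0.25) in the same comparisons, none called.

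Of 22 genes of the PERK-ATF4 arm, such as Ddit4 and Ppp1r15b, 18 passed the filter, and 0 were called in CC against CB of either genotype by edgeR, with 2 in Smarca4+/- and 4 in Smarca4+/+ mice at an unadjusted p under 0.05. DESeq2 called 2 in Smarca4+/- and 3 in Smarca4+/+ mice. Ddit4, a stress-induced inhibitor of mTORC1, was at 40.1 and 22.5 CPM in Smarca4+/- CC, against 9.33 and 11.3 CPM in Smarca4+/- CB (log2 fold change 1.59, SE 0.56, adjusted p = 0.157). The list's median was -0.12 in Smarca4+/- and -0.48 in Smarca4+/+ mice, or -0.06 and 0.01 with genes whose CC counts were all 0 (Atf5, Trib3 and Atf3 in Smarca4+/-, Trib3 and Atf3 in Smarca4+/+) set at their floor. The sign of the Smarca4+/+ median thus rests on depth.

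Of 26 other ER chaperones and folding enzymes, 24 passed the filter, and edgeR called 0 higher and 1 lower in CC of each genotype. DESeq2 called 1 higher and 2 lower in Smarca4+/- CC, and 3 higher and 2 lower in Smarca4+/+ CC. Their median log2 fold change was 0.19 in Smarca4+/- and 0.34 in Smarca4+/+ mice, with 17 and 18 of 24 above 0, where 46.0% and 42.0% of all genes were above 0. The gene that edgeR called lower was Txndc11, an ER thioredoxin domain protein, at 45.4 and 73.5 CPM in Smarca4+/- CC, against 214.1 and 201.3 CPM in Smarca4+/- CB (log2 fold change -1.80, SE 0.29, edgeR's adjusted p = 0.00859). In Smarca4+/+ CC it was at 114.4 and 71.9 CPM, against 179.4 and 208.6 CPM in Smarca4+/+ CB (-1.06, SE 0.29, adjusted p = 0.0473). Leaving out 1 library ended the Smarca4+/- call in 3 cases (the first Smarca4+/- CC library and either Smarca4+/- CB library, adjusted p = 0.0852 to 0.117) and the Smarca4+/+ call in 5 (the second Smarca4+/+ CC and every CB library, adjusted p = 0.114 to 0.315), as did RLE scaling in Smarca4+/+ mice (adjusted p = 0.0737).

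Of 18 genes of ER-associated degradation, edgeR called 0 higher and 1 lower in Smarca4+/- CC, and DESeq2 1 higher and 1 lower. The gene called by edgeR was Ube2j1, a ubiquitin-conjugating enzyme of the ER membrane. It was at 90.8 and 125.7 CPM in Smarca4+/- CC, against 244.8 and 194.8 CPM in Smarca4+/- CB (log2 fold change -1.02, SE 0.23, edgeR's adjusted p = 0.037). That call ended with RLE or total count scaling, a stricter low count filter, thinned CB counts and these groups fitted alone (edgeR's adjusted p = 0.0543 to 0.0932). It also ended without any 1 of the first Smarca4+/- CC library and the 4 CB libraries (log2 fold changes of -1.13 to -0.79). In Smarca4+/+ CC edgeR called 0 of the 18, with 3 at an unadjusted p under 0.05, and DESeq2 called 2 higher and 1 lower. The medians were -0.14 in Smarca4+/- and 0.02 in Smarca4+/+ mice.

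Of 23 genes of translocation into the ER and N-glycosylation, edgeR called 0 in Smarca4+/- CC (1 at an unadjusted p under 0.05, and 1 called by DESeq2), and 1 rose in Smarca4+/+ CC, Ssr2, a subunit of the translocon-associated complex. Ssr2 was at 75.1 and 68.7 CPM in Smarca4+/+ CC, against 28.1 and 29.5 CPM in Smarca4+/+ CB (log2 fold change 1.32, SE 0.31, edgeR's adjusted p = 0.0276), and at 37.4 and 40.3 CPM in Smarca4+/- CC, against 39.2 and 41.3 CPM in Smarca4+/- CB. The Smarca4+/+ call ended without any 1 of the 4 CB libraries (adjusted p = 0.0741 to 0.22). The list's median was -0.05 in both genotypes, or 0.07 in Smarca4+/+ mice with Sec61g, whose Smarca4+/+ CC counts were 0, at its floor. Of 12 cytosolic and mitochondrial heat shock chaperones, edgeR called 0 in either genotype, with 2 at an unadjusted p under 0.05 in each, and DESeq2 called 0 in Smarca4+/- and 2 in Smarca4+/+ mice. The medians were -0.10 in Smarca4+/- and -0.01 in Smarca4+/+ mice. Between genotypes, edgeR called 0 of the 106 genes in CC, in CB and in the interaction, with 11, 0 and 5 at an unadjusted p under 0.05 in that order, and DESeq2 called 2, 0 and 1.

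**Figure D4:**
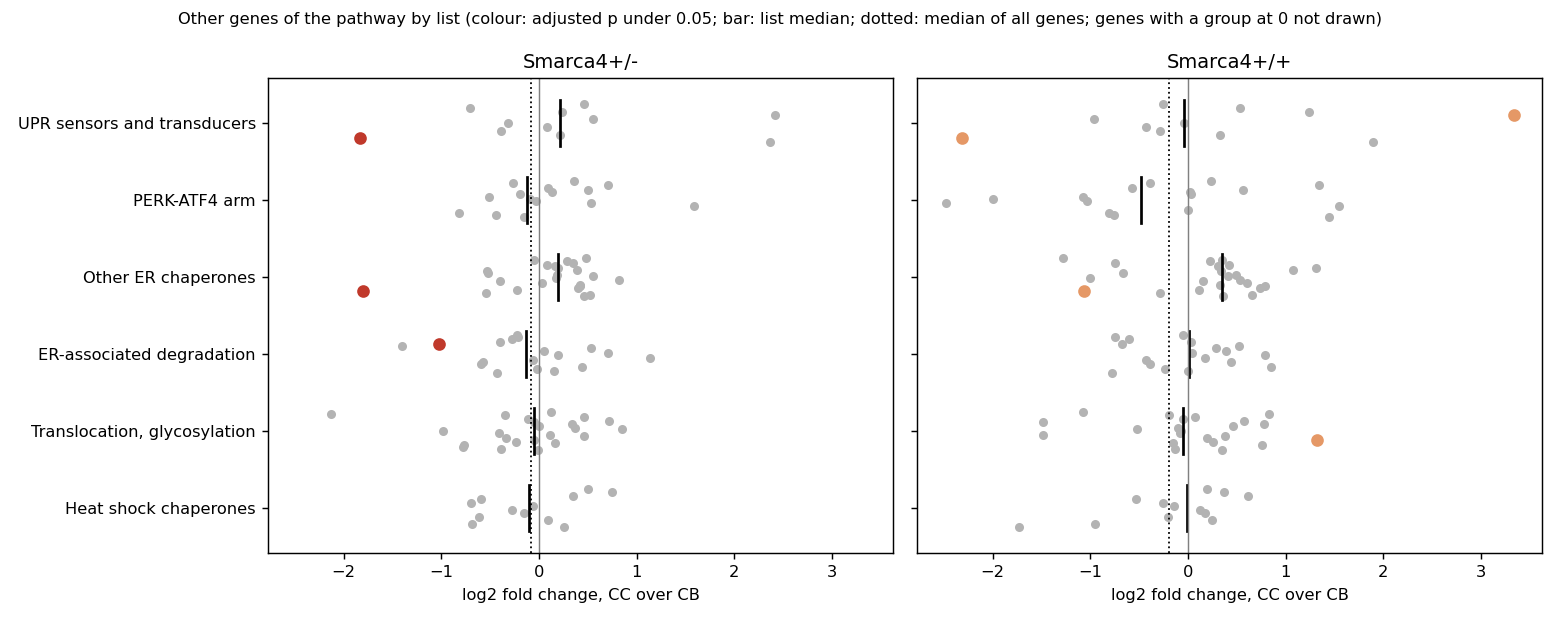
Log2 fold change of CC over CB for the other pathway genes, by list, in Smarca4+/- (left) and Smarca4+/+ mice (right); points are genes, coloured where edgeR's adjusted p was under 0.05, bars the list medians and dotted lines the median of all genes. Coloured are Eif2ak3 (-1.83), Txndc11 (-1.80) and Ube2j1 (-1.02) in Smarca4+/- mice, and Eif2ak3 (-2.31), Txndc11 (-1.06), Creb3l2 (3.34) and Ssr2 (1.32) in Smarca4+/+ mice. Genes with a group at 0 counts are not drawn.

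The 6 chaperones and folding enzymes Pdia4, Pdia6, Hspa5, Hsp90b1, Calr and Sdf2l1 together made up 1518.3 and 1110.9 CPM in Smarca4+/- CC, 1847.7 and 1597.1 CPM in Smarca4+/+ CC, 940.1 and 729.5 CPM in Smarca4+/- CB, and 892.5 and 688.0 CPM in Smarca4+/+ CB. The other 4 genes together made up 291.1 and 251.3 CPM in Smarca4+/- CC, 239.4 and 238.7 CPM in Smarca4+/+ CC, 297.2 and 277.9 CPM in Smarca4+/- CB, and 290.4 and 281.3 CPM in Smarca4+/+ CB. The summed chaperones were higher in every CC library than in every CB library, while the 4 other genes were not. The first Smarca4+/- CC library was above the second in 5 of the 6 chaperones and folding enzymes, Sdf2l1 being the exception.

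Markers of other cells differed between the same libraries. The summed level of 7 plasma cell markers, the cells known for the highest ER chaperone content, was lower in CC, at 379 and 344 CPM in Smarca4+/- CC, 354 and 381 CPM in Smarca4+/+ CC, and 522 to 653 CPM in the CB libraries. The lower sum lay with Jchain, at 176.7 to 268.0 CPM in CC and 275.7 to 383.4 CPM in CB libraries, and Slamf7, at no more than 153.7 CPM in CC and 226.7 to 252.4 CPM in CB libraries. Of the defining genes, Tnfrsf17 (BCMA) was at 0 counts in every CC library and at 0 to 0.316 CPM in CB, which is under the CC floors, so the CC depth could not show a difference. Sdc1 (CD138) was at 2.67 and 2.37 CPM (2 counts each) in Smarca4+/- CC, 0 in both Smarca4+/+ CC libraries, and 0.508 to 1.97 CPM in CB. Mzb1, an ER protein of antibody-secreting cells, was at 17.4 and 9.48 CPM in Smarca4+/- CC, 17.9 and 18.0 CPM in Smarca4+/+ CC, and 10.0 to 13.5 CPM in CB. Prdm1 (BLIMP1) was at 32.0 and 17.8 CPM in Smarca4+/- CC, 17.9 and 22.9 CPM in Smarca4+/+ CC, and 2.31 to 5.48 CPM in the CB libraries. No difference of Prdm1 was called by edgeR. Of the 6 plasma cell markers tested, DESeq2 called 1 higher in CC than in CB of each genotype, and 1 lower in Smarca4+/- CC.

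Macrophage markers were much higher in CC. The sum of 12 such genes was 3313 and 1490.3 CPM in Smarca4+/- CC, 2884 and 2934 CPM in Smarca4+/+ CC, and 44.5 to 214.9 CPM in the CB libraries, with 10 of 12 called higher by edgeR in Smarca4+/- and 9 of 12 in Smarca4+/+ CC. The sum of 9 T cell markers was 219.0 and 199.2 CPM in Smarca4+/- CC, 482.5 and 488.8 CPM in Smarca4+/+ CC, and 110.4 to 134.2 CPM in the CB libraries, with 4 of 9 called higher in Smarca4+/- and 6 of 9 in Smarca4+/+ CC. That of the 7 erythroid markers was 419.3 and 104.3 CPM in Smarca4+/- CC, 582.5 and 712.7 CPM in Smarca4+/+ CC, and 5.04 to 10.4 CPM in CB, with 4 and 5 of the 6 tested called higher in Smarca4+/- and Smarca4+/+ CC. The 6 B cell markers summed to 3557.3 to 4664.2 CPM in CC and 4361.9 to 5213.6 CPM in CB libraries. In the CB libraries nearly all of the T cell sum was Lck, at 108.4 to 132.2 CPM. The erythroid sum followed the order of Pdia4 over all 4 CC libraries, and the macrophage sum did so within each genotype. The T cell sum also did, but its Smarca4+/+ CC values were close and its genes were split. Cd3d, Cd3g, Cd8a, Themis and Il7r were higher in the first Smarca4+/+ CC library, and Cd3e, Cd4, Trac and Lck in the second. The part of these cells in the chaperone levels was not tested. Mitochondrial genes, a sign of RNA or cell quality, took 5.86% and 2.24% of counts in Smarca4+/- CC, 5.56% and 4.01% in Smarca4+/+ CC, and 0.699% to 1.40% in the CB libraries, and their part was not tested either.

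**Figure D5:**
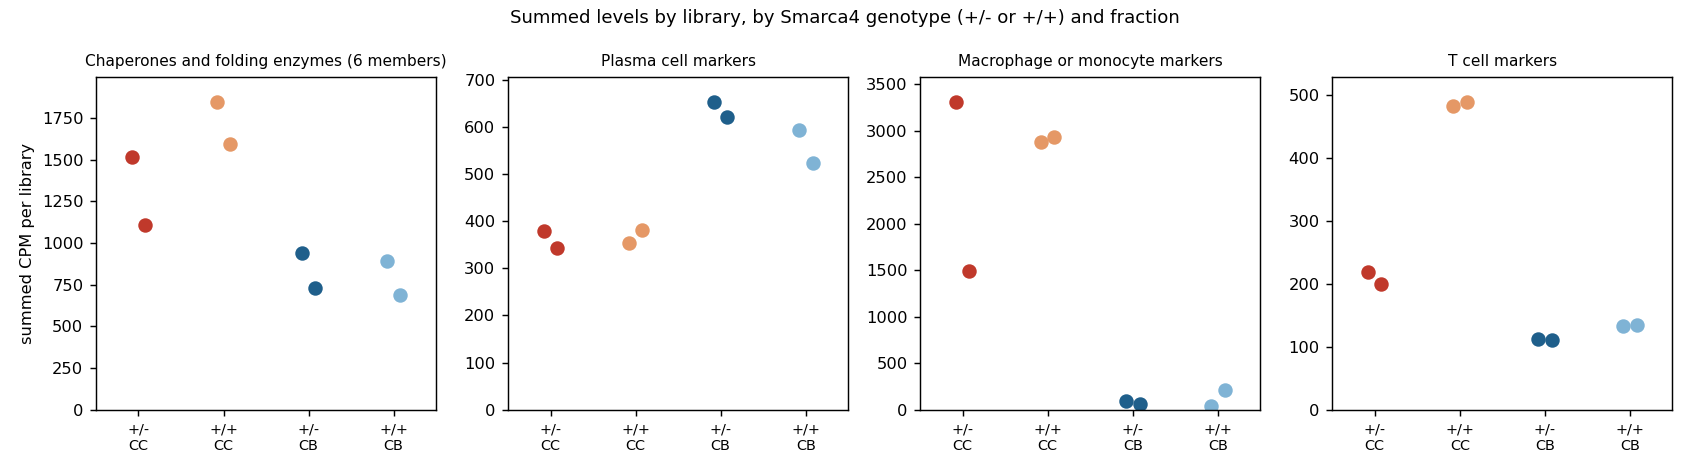
Summed level per library, in CPM, of the 6 chaperones and folding enzymes and of the plasma cell, macrophage and T cell markers, by Smarca4 genotype and fraction; points are libraries. The chaperone sum is 1110.9 CPM or more in CC and 940.1 CPM or less in CB libraries. The plasma cell sum is lower in CC, although single genes of that list went both ways, and the macrophage sum is higher in CC.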

How the data were processed

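Total RNA of splenic germinal centre B cells was depleted of ribosomal RNA and sequenced, per the labels' protocols. The deposited table holds the authors' raw read counts per gene with no normalization, and, as its other unit, a length column in bases per the file headers, used here only for levels per kilobase. The submitters' processing notes name FastQC, STAR, featureCounts, Subread, R 4.2.1 and mm10; the strand setting is not given in the sources used here. Most counts between 1 and 20 were even (84.1% to 92.0% in CC, 75.1% to 81.1% in CB libraries).

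The tests used edgeR 4.0.16 (R 4.3.3): filterByExpr (minimum count 10, minimum total 15), TMM scaling, a quasi-likelihood fit with a mean for each of 4 groups over all 8 libraries (4 residual degrees of freedom), 2-sided tests, and Benjamini-Hochberg adjustment at 0.05 over 12997 genes. CPM values use TMM scaling, and each SE was computed from a fold change and its F value. Each 95% interval takes that SE as normal and is narrower than the F test allows. That of Calr in the interaction, -1.26 to -0.04, leaves out 0 at an unadjusted p of 0.0614 in edgeR's test. Alternatives were DESeq2 1.42.0, RLE and total count scaling, no or a stricter filter (50 counts in 2 libraries), a replicate block, only the groups compared, CB counts thinned to 657641, each library left out and, added after the counts were seen, counts halved and rounded up. On simulated counts the fit recovered 10% of 2-fold and 48% of 4-fold changes in Smarca4+/- CC against CB (12766 genes), and 0% and 23% in the interaction (12765 genes). The members and lists were chosen with earlier results of these data known. Named beside the members were, per list and comparison, up to 4 called genes of smallest p, or the 2 of smallest p where none was called. These were shown selectively. Other genes of the lists, such as Mzb1, Tnfrsf17, Cd83 and Lck, were named outside that rule. Protein sequences are not shown.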

Additional observations from a re-analysis of the deposited data

How the results depend on the processing

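Of 1017 recomputed gene values (each member, called pathway gene and Smarca4 under each alternative), 958 stayed on their side of the threshold, or within their error where untested, and 0 reversed a call; 48 lost and 7 gained a call, and 4 untested values moved. The count of members called in Smarca4+/- CC against CB was 1 and became 2 with DESeq2, no filter, the replicate block, thinned CB counts and halved counts, 0 with only the groups compared, and 0 to 1 with a library left out, the libraries being named beside the result. In CC between genotypes it was 0 and became 1 with DESeq2 and with no filter. The members' median in Smarca4+/+ CC against CB was 0.72 and ran between 0.61 and 1.02 with a library left out, the highest without the first Smarca4+/+ CB library. The counts of members called in CB between genotypes and in the interaction stayed 0 under every alternative run; the interaction could not be fitted with only the groups compared.

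Counts over all genes moved more. Against 477 genes in Smarca4+/- CC against CB, DESeq2 called 1487, no filter 1142, halved counts 979, only the groups compared 308 and thinned counts 296. Against 973 in Smarca4+/+ mice they called 2167, 1651, 1369, 292 and 610 in that order. Leaving out 1 library gave 0 to 932 and 222 to 1413 in these comparisons. For genotype in CC, 3 genes became 846 with DESeq2, 323 with no filter, 29 with halved and 8 with thinned counts; in CB, 0 became 3 with DESeq2 and 13 with no filter; in the interaction, 0 became 339, 46 and, with halved counts, 3. Among called pathway genes in Smarca4+/+ mice, Creb3l2 lost its call with thinned counts (edgeR's adjusted p = 0.0685) and Ssr2 with the replicate block (adjusted p = 0.0509). Both lost it with only the groups compared (edgeR's adjusted p = 0.0641 and 0.0783). In the same mice 11 of 17 alternatives ended the Txndc11 call. The cause was not tested.

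Over all genes, the deviations of libraries with the same replicate number were nearly uncorrelated between groups (-0.046 to 0.053), which does not speak to single genes. The labels do not say what the number marks, so it was not taken as a pairing. The 10 genes summed to more in replicate 1 than in replicate 2 of all 4 groups (1809.4 and 1362.3 CPM in Smarca4+/- CC, 2087.1 and 1835.8 in Smarca4+/+ CC, 1237.2 and 1007.4 in Smarca4+/- CB, 1182.9 and 969.3 in Smarca4+/+ CB). In all 4 groups replicate 2 also had the higher share of ribosomal RNA and the lower share of mitochondrial counts. With the replicate number as a block 2 members were called in Smarca4+/- CC against CB (Pdia4 and Hsp90b1, the second with adjusted p = 0.0271), and 443 genes in all. The CC depth limits Ddit3 and Dnajb9 most, at 0 to 13 counts a CC library.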
